A study of Bos taurus with 12 samples.

Results

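Among 6 microarrays of cytokine-treated bovine chromaffin cells, 3 carried a high level of the transcript of vascular endothelial growth factor A (VEGFA) and 3 a low level, and the cytokine did not separate them. Chromaffin cells make and secrete adrenaline and noradrenaline in the medulla of the adrenal gland. The arrays were chosen by their own readout, the brightest of 2 VEGFA probe sets, at a threshold of 10.5 on the log2 scale of the deposited RMA expression values. The VEGFA-high arrays were repeats 2 and 3 of the cells given interleukin-6 (IL6, 10 nM for 24 h) and repeat 3 of those given human interferon alpha (IFNα, 1 nM for 24 h). The VEGFA-low arrays were IL6 repeat 1 and IFNα repeats 1 and 2. The series holds 12 arrays in all, and the other 6, which the split did not use, were 3 of cells given histamine (10 µM for 6 h) and 3 of untreated cells. The submitters call the 3 arrays of a treatment technical repeats, and the sources used here do not give which of them shared a culture, an RNA extract or a hybridisation batch.

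VEGFA is a secreted growth factor that drives the growth of blood vessels, and its gene is a textbook target of the hypoxia-inducible factors. These factors pair an oxygen-regulated alpha subunit (HIF1A or EPAS1) with ARNT. When oxygen is plentiful, EGLN prolyl hydroxylases mark the alpha subunit for breakdown, so HIF activity is set largely by protein stability and not by the alpha subunit's transcript. Active HIF raises glucose uptake, glycolysis, lactate export and the enzymes that mature collagen. The adrenal medulla is known to answer low oxygen by secreting catecholamines.

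The split itself was wide. VEGFA read 11.17 and 11.95 on VEGFA-high IL6 arrays and 11.76 on the VEGFA-high IFNα array, against 9.41 on the VEGFA-low IL6 array and 9.47 and 9.49 on the VEGFA-low IFNα arrays. No array lay near the threshold, the closest being 11.17 above it and 9.49 below it. The VEGFA-low arrays lay at or just below the untreated arrays (9.48, 9.52 and 9.44), while histamine arrays read 10.73, 10.71 and 10.74. The second, dimmer VEGFA probe set separated the same arrays, with 6.88, 7.73 and 7.53 on the VEGFA-high arrays and 5.68, 5.61 and 5.71 on the VEGFA-low arrays. The log2 difference for the brightest VEGFA probe set was 2.15 (4.44-fold) within IL6 and 2.28 (4.86-fold) within IFNα. Because a transcript read on these arrays chose the sides, all differences between VEGFA-high and VEGFA-low arrays are given as a description, with no test. Where 3 values are given for each side, IL6 arrays come before IFNα arrays and repeats run by number.

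A probe set was listed as higher or lower when all VEGFA-high arrays lay beyond all VEGFA-low arrays of the same cytokine and the difference was at least 1.5-fold, in both cytokines. Of 24016 probe sets, 123 (0.512%) were listed higher and 23 (0.0958%) lower. Among 9155 named genes, each read from its brightest probe set, 57 (0.623%) were listed higher and 5 (0.0546%) lower. These shares follow from the way the arrays were split, and nothing is read from them. Shares this small leave most short gene lists with no listed member, so nothing is read from such a count either. The genes listed higher had a median difference of 0.97 on the log2 scale (mean of the 2 cytokines), and those listed lower had a median of −0.63. In bulk RNA, more cells of a type and more RNA per cell cannot be told apart.

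**Figure D1:**
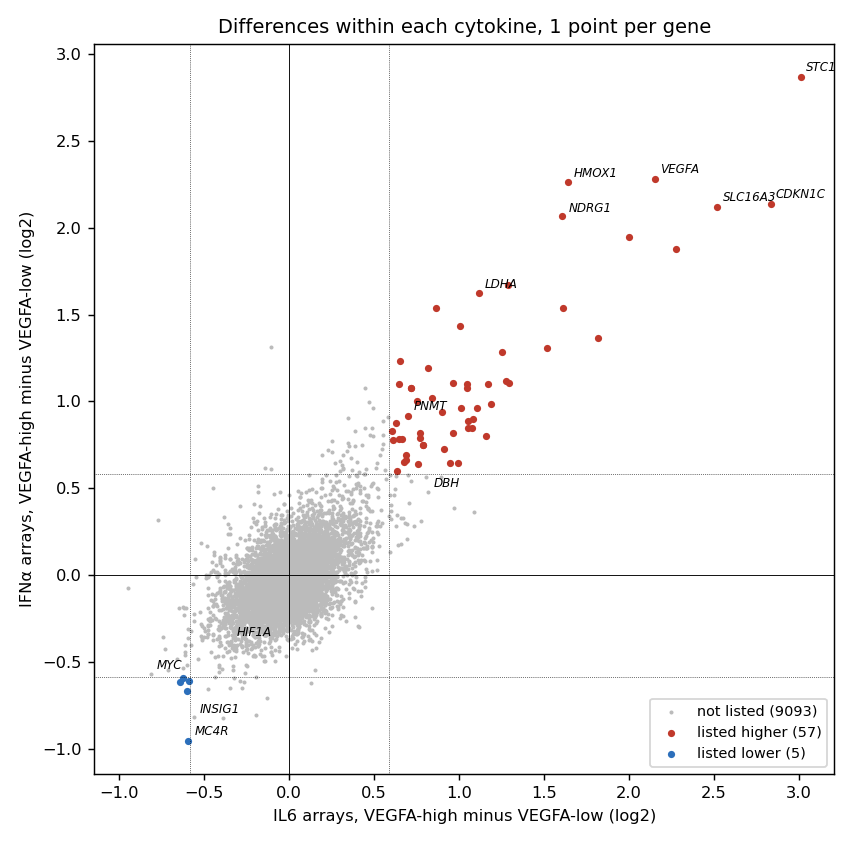
Log2 difference, VEGFA-high minus VEGFA-low, for each named gene within the IL6 arrays (horizontal axis) and within the IFNα arrays (vertical axis). Dotted lines mark 1.5-fold, red points the 57 genes listed higher, blue points the 5 listed lower and grey points the other 9093 genes. STC1 lies farthest along the diagonal, and the genes listed lower lie close to the 1.5-fold lines.

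The genes with the widest differences were a secreted hormone, a cell cycle inhibitor, a lactate carrier and a chemokine receptor. STC1, which encodes the hormone stanniocalcin-1, read 7.80 and 8.96 on VEGFA-high IL6 arrays and 8.14 on the VEGFA-high IFNα array, against 5.37 on the VEGFA-low IL6 array and 5.37 and 5.18 on the VEGFA-low IFNα arrays. That is 8.06-fold within IL6 and 7.29-fold within IFNα. The VEGFA-low arrays were again close to untreated cells, where STC1 read 5.22, 4.89 and 5.10.

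SLC16A3, the MCT4 carrier that exports lactate, read 8.25 and 9.11 on VEGFA-high IL6 arrays and 8.21 on the VEGFA-high IFNα array, against 6.16 on the VEGFA-low IL6 array and 6.13 and 6.05 on the VEGFA-low IFNα arrays. Its difference was 5.74-fold within IL6 and 4.35-fold within IFNα. Histamine arrays (6.21 to 6.33) and untreated arrays (6.19 to 6.27) overlapped each other and lay far below the VEGFA-high arrays. Of the 3 SLC16A3 probe sets the other 2 had mean differences of 0.24 and 0.57, so the size depends on the probe set.

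CDKN1C, which encodes the cyclin-dependent kinase inhibitor p57, read 11.93 and 12.76 on VEGFA-high IL6 arrays and 12.98 on the VEGFA-high IFNα array, against 9.51 on the VEGFA-low IL6 array and 10.83 and 10.86 on the VEGFA-low IFNα arrays. Unlike VEGFA, its VEGFA-low IL6 array also lay well below untreated cells (11.02, 11.00 and 10.89). The 7.14-fold difference within IL6 therefore has 2 components, VEGFA-high arrays above untreated cells and a VEGFA-low array below them, whereas the 4.39-fold difference within IFNα lies almost wholly above untreated cells. All 3 CDKN1C probe sets were listed higher, but the size depends on the probe set. The mean log2 difference was 2.49 for the brightest and 0.74 and 1.19 for the other 2.

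NDRG1, a hypoxia-induced stress gene, read 11.05 and 11.76 on VEGFA-high IL6 arrays and 10.87 on the VEGFA-high IFNα array, against 9.80 on the VEGFA-low IL6 array and 8.73 and 8.88 on the VEGFA-low IFNα arrays. The difference was 3.04-fold within IL6 and 4.18-fold within IFNα. HMOX1, which encodes the heme-degrading enzyme heme oxygenase-1, read 10.13, 10.83 and 12.03 on the VEGFA-high arrays (IL6 repeats 2 and 3, IFNα repeat 3) and 8.84, 9.68 and 9.86 on the VEGFA-low arrays (IL6 repeat 1, IFNα repeats 1 and 2). Its VEGFA-low IFNα arrays lay above untreated cells (8.77 to 8.86), so HMOX1 read above untreated cells on all IFNα arrays, farthest on repeat 3. AK4, a mitochondrial adenylate kinase, differed 4-fold within IL6 and 3.85-fold within IFNα, and ACKR3, the atypical receptor that scavenges CXCL12, differed 4.84-fold and 3.67-fold.

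**Figure D2:**
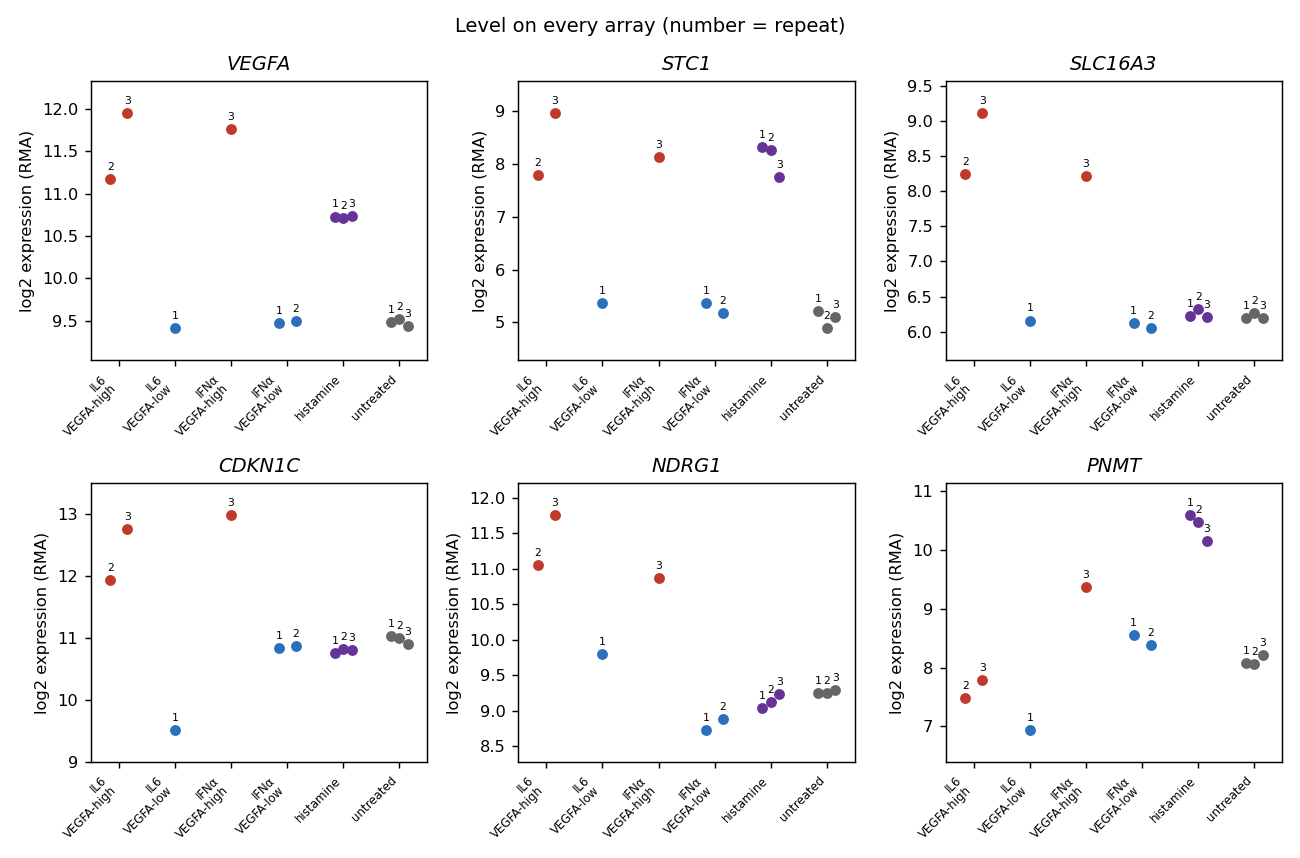
Log2 expression (RMA) of VEGFA, STC1, SLC16A3, CDKN1C, NDRG1 and PNMT on each of the 12 arrays, with the repeat number beside each point and a vertical scale of its own in each panel. VEGFA, STC1 and SLC16A3 read on the VEGFA-low arrays close to untreated cells, whereas CDKN1C (9.51) and PNMT (6.94) on the VEGFA-low IL6 array lie below them.

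Most glycolysis genes were higher on the VEGFA-high arrays. Of 22 measured members of 25, 5 were listed higher (SLC16A3, LDHA, PFKFB3, TPI1 and SLC2A1), 0 lower, and 18 had all VEGFA-high arrays above all VEGFA-low arrays of the same cytokine. Over all named genes, 18.6% lay on that side. The median difference of the list was 0.39 on the log2 scale, against −0.02 over all named genes. Taken as the mean level of its members minus the untreated mean, the list stood at 0.51, 0.75 and 0.48 on the VEGFA-high arrays (IL6 repeats 2 and 3, IFNα repeat 3) and at 0.09, −0.06 and −0.04 on the VEGFA-low arrays (IL6 repeat 1, IFNα repeats 1 and 2).

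The individual steps of the pathway differed unequally. SLC2A1, the glucose carrier GLUT1, was 2.28-fold higher within IL6 and 1.98-fold within IFNα. PFKFB3, which makes the activator of phosphofructokinase, was 2.01-fold and 2.7-fold higher by its brightest probe set, while its other 2 had mean log2 differences of 0.00 and 0.16. The triosephosphate isomerase TPI1 was 2.25-fold and 2.14-fold higher. LDHA, the subunit of lactate dehydrogenase that favours making lactate, read 12.30, 12.84 and 12.29 on the VEGFA-high arrays and 11.45, 10.78 and 10.55 on the VEGFA-low arrays. The other 2 LDHA probe sets did not follow, with mean differences of −0.08 and 0.04. Among members below the 1.5-fold minimum, the mean log2 difference was 0.38 for PGK1 (phosphoglycerate kinase), 0.39 for ENO1 (enolase), 0.52 for ALDOA (aldolase) and 0.19 for GAPDH. The 4 members without a shared direction in both cytokines were PFKM, PKM, GBE1 and PGM1, with mean differences of −0.03 to 0.12. ENO1, ALDOA, GAPDH, PFKM, PKM, GBE1 and PGM1 were picked out after their values were seen.

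Of the classic hypoxia targets outside glycolysis, 30 of 40 were measured, 12 were listed higher and 0 lower. On all VEGFA-high arrays 22 lay above and 5 below, against 18.6% and 24.3% of all named genes, and the median difference was 0.43. VEGFA, which set the sides, is counted among the 30, the 12 and the 22 and in the median. Its own place there was fixed in advance. Beside VEGFA, STC1, NDRG1 and HMOX1, they were the collagen-modifying enzymes P4HA1, P4HA2 and PLOD2, the oxidoreductase ERO1A, the mitophagy receptor BNIP3, the mTORC1 inhibitor DDIT4, the clock-linked repressor BHLHE40 and the prolyl hydroxylase EGLN3, itself part of the oxygen-sensing loop. P4HA1, a catalytic subunit of collagen prolyl 4-hydroxylase, was 2.45-fold higher within IL6 and 2.15-fold within IFNα, and BNIP3 was 2.15-fold and 1.95-fold higher. ADM, the vasodilator peptide adrenomedullin, was 1.96-fold higher within IL6 but 1.31-fold within IFNα, below the minimum. The 5 members below were CXCR4, TFRC, EPO, INSIG2 and PLOD1, with mean log2 differences of −0.57, −0.33, −0.24, −0.24 and −0.22, and were picked out after their values were seen. For PLOD1 the other probe set went the other way (0.23). P4HA2, PLOD2, ERO1A and BHLHE40 are outside the rule for named genes and appear here as members that were listed.

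EGLN3 read 6.22 and 6.80 on VEGFA-high IL6 arrays and 5.35 on the VEGFA-high IFNα array, against 5.74 on the VEGFA-low IL6 array and 4.60 and 4.46 on the VEGFA-low IFNα arrays. The VEGFA-low IL6 array thus lay above the VEGFA-high IFNα array, and above untreated cells (4.69 to 4.81), so for EGLN3 the sides overlapped when the cytokines were put together. The folds of EGLN3, PAG16, CABP1 and FAM167A (the last 2 outside the rule for named genes) have their lower mean below the lower quartile of the arrays (5.02 to 5.11). RMA compresses differences there.

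Apart from EGLN3, which was counted with the hypoxia targets, the transcripts of the oxygen-sensing machinery differed little between the sides. HIF1A read 11.91, 11.67 and 11.24 on the VEGFA-high arrays and 12.13, 11.65 and 11.60 on the VEGFA-low arrays. It was lower on the VEGFA-high arrays within each cytokine, by 0.34 and 0.38 on the log2 scale (differences of −0.34 and −0.38). EPAS1 (HIF2α), brighter than 12 on all arrays by its brightest probe set, differed by 0.08 and 0.12 there. Its other probe set went the other way, with a mean difference of −0.25. EGLN1 and EGLN2 differed by 0.18 and 0.14 in the mean of both cytokines, and none of 7 measured members of the sensing list was listed. Among 11 measured angiogenic factors other than VEGFA 0 were listed, although VEGFC, the lymphatic growth factor, was 1.71-fold higher within IFNα and 1.19-fold within IL6. With 0.623% of all named genes listed higher and 0.0546% lower, nothing is read from the counts of these 2 lists.

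In the respiratory chain and citric acid cycle, NDUFA4L2 was the only listed gene of 29 measured. NDUFA4L2 is a hypoxia-induced relative of a cytochrome oxidase subunit that is known to lower respiration. It read 6.37, 7.30 and 6.73 on the VEGFA-high arrays and 5.56, 5.58 and 5.64 on the VEGFA-low arrays, while its other probe set had a mean difference of −0.02. The list as a whole was level, with a median difference of −0.01. The unfolded protein and integrated stress response had 0 listed of 21 measured and a median of 0.01, with the chaperone HSPA5 at −0.04. Of all named genes 0.623% were listed higher and 0.0546% lower, so nothing is read from 0 of 21.

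The catecholamine genes of the chromaffin cell differed unevenly. PNMT, which converts noradrenaline to adrenaline, read 7.49 and 7.79 on VEGFA-high IL6 arrays and 9.38 on the VEGFA-high IFNα array, against 6.94 on the VEGFA-low IL6 array and 8.55 and 8.38 on the VEGFA-low IFNα arrays. Untreated cells read 8.08, 8.06 and 8.22, so all IL6 arrays lay below them and all IFNα arrays above. PNMT was the exception among the 57 genes listed higher: in the other 56 the VEGFA-high arrays all lay above all untreated arrays. The share of all named genes that did so was not counted.

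DBH, the enzyme that makes noradrenaline, was 1.77-fold higher within IL6 and 1.39-fold within IFNα. CYB561, the cytochrome that supplies DBH with reducing equivalents in the granule, was 1.86-fold and 1.48-fold higher. For both genes the VEGFA-low IL6 array was the lowest of the 6 cytokine arrays (10.17 for DBH and 11.80 for CYB561). SLC18A2, the vesicular monoamine carrier, was 1.27-fold higher within IL6 and 1.87-fold within IFNα. TH, the rate-limiting enzyme, differed by 0.03 and 0.04, but at 13.36 to 13.69 on these arrays it lay near the highest values read (14.01 to 14.14), where a change may not show. Of 14 measured catecholamine genes 1 was listed, and on all VEGFA-high arrays 7 lay above and 0 below, against 18.6% and 24.3% of all named genes. Neuropeptides and granins had 0 listed of 17, with PENK (0.02), GAL (0.00) and CHGA (0.09) nearly level. CHGA, like TH, lay near the highest values read, where a change may not show. Of all named genes 0.623% were listed higher and 0.0546% lower, so nothing is read from 1 of 14 or 0 of 17.

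As means over their gene lists, the cytokine responses themselves hardly differed between the sides. Single members could still differ, as EIF2AK2 did among the IFNα arrays (values under Other observations). ISG15 lay near the highest values read on IFNα arrays, where a difference may not show. As a mean over 34 interferon-response genes minus the untreated mean, the VEGFA-high IFNα array stood at 3.52 and the VEGFA-low IFNα arrays at 3.51 and 3.55. For 23 IL6-family and STAT3 targets, the VEGFA-high IL6 arrays stood at 0.77 and 0.73 and the VEGFA-low IL6 array at 0.74. No member of either list was listed higher or lower, where 0.623% and 0.0546% of all named genes were. On all VEGFA-high arrays 3 interferon-response genes lay above and 11 below, and 4 and 5 of the IL6 and STAT3 list. Over all named genes the shares were 18.6% and 24.3%. ISG12(B), named as an interferon-stimulated gene but outside that list, was listed higher, 1.55-fold within IL6 and 1.52-fold within IFNα. RSAD2, an antiviral enzyme, read 12.40 on the VEGFA-high IFNα array and 12.53 and 12.48 on the VEGFA-low ones. SOCS3, the feedback inhibitor of STAT3 signalling, read 5.97 and 5.86 on VEGFA-high IL6 arrays and 5.97 on the VEGFA-low one.

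**Figure D3:**
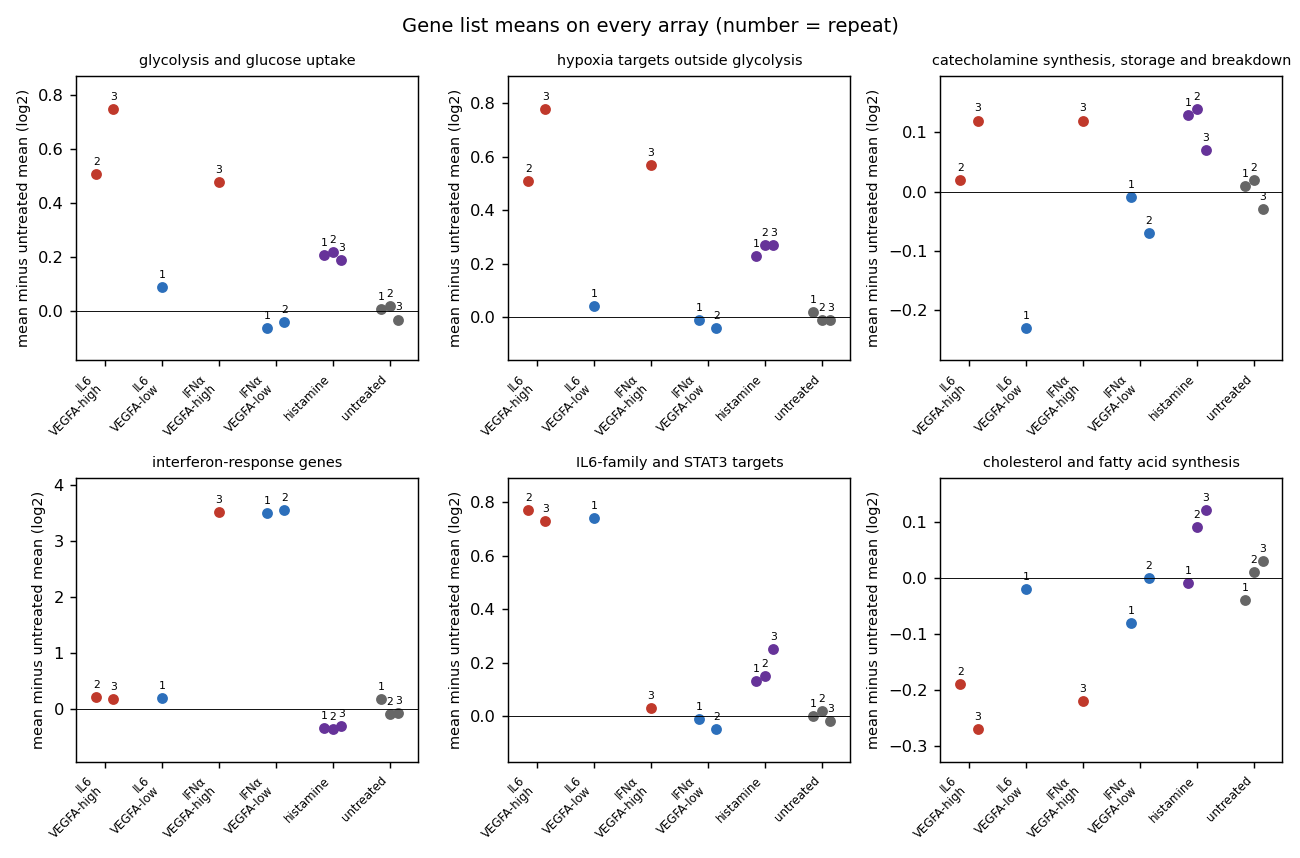
Mean log2 level of the members of 6 gene lists on each array, minus the untreated mean, with the repeat number beside each point and a vertical scale of its own in each panel. The glycolysis list and the hypoxia list, which holds VEGFA itself, are raised on the VEGFA-high arrays of both cytokines. The interferon list stands at 3.51 to 3.55 on all IFNα arrays, and the IL6 and STAT3 list at 0.73 to 0.77 on all IL6 arrays.

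Immediate early genes, which stimulation induces quickly, were 0 of 19 listed, with 9 members above and 4 below on all VEGFA-high arrays, against 18.6% and 24.3% of all named genes. NR4A1, a nuclear receptor of this class, was 1.75-fold higher within IL6 and 1.48-fold within IFNα, and the transcription factor EGR1 was 1.62-fold and 1.49-fold higher by its brighter probe set, the other having a mean difference of −0.10. JUNB differed by 0.57 and 0.55 and FOS by 0.53 and 0.50 on the log2 scale, under the 1.5-fold minimum. In contrast, MYC, a growth regulator, was lower on the VEGFA-high arrays, by 0.81 within IL6 (difference −0.81) and by 0.57 within IFNα (difference −0.57).

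Genes listed lower were few and small in size. MC4R, a melanocortin receptor, read 7.51, 7.04 and 7.39 on the VEGFA-high arrays and 7.87, 8.56 and 8.12 on the VEGFA-low arrays, against 8.72 to 8.86 in untreated cells. The others were the kinase SGK1, the endothelin receptor EDNRB, the mannosidase MAN1A1 and ABCF3, with mean differences of −0.63, −0.63, −0.60 and −0.61. ABCF3 ranged from 5.90 to 6.64 among untreated repeats alone, a spread wider than its difference between the sides, and the histamine repeats of ABCF3 and EDNRB spanned 0.84 and 0.66, also wider. SGK1 had a probe set that went the other way (0.14). EDNRB read above untreated cells (4.81 to 5.17) on all 3 IL6 arrays, with 6.19 and 5.87 on the VEGFA-high ones and 6.63 on the VEGFA-low one.

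Cholesterol synthesis genes were slightly lower on the VEGFA-high arrays, with 0 of 17 measured genes listed, 0 above and 10 below on all VEGFA-high arrays, and a median difference of −0.16. Over all named genes, 24.3% lay on that side. INSIG1, which holds back the cholesterol-sensing transcription factors, came closest at 7.32, 7.02 and 7.22 on the VEGFA-high arrays and 7.73, 7.98 and 8.09 on the VEGFA-low arrays. LSS, which forms lanosterol, and CYP51A1, which demethylates it, had mean differences of −0.43 and −0.34, and the other LSS probe sets −0.14 and 0.01.

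The VEGFA-high arrays were unequal among themselves. IL6 repeat 3 read above IL6 repeat 2 in 56 of 57 genes listed higher, NARF being the exception, and below it in 5 of 5 genes listed lower. Over all named genes, 37.4% read higher in repeat 3 than in repeat 2. In 46 of the 57 genes all VEGFA-low arrays lay within 1.5-fold of the untreated mean. Among the others, 5 had a VEGFA-low array at least 1.5-fold below untreated cells (CDKN1C, DENND1A, IL20RA, PNMT and NR0B1) and 6 had one at least 1.5-fold above (HMOX1, LDHA, GGTA1, UPP1, EGLN3 and ISG12(B)). The shares of all named genes that met these conditions were not counted, so nothing is read from 46 of 57.

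The spread of repeats in the other treatments was narrower. The 57 genes were chosen by differences between cytokine repeats, so nothing is read from their narrower ranges elsewhere. Over the 57 genes the range of the 3 histamine repeats had a median of 0.18 and a maximum of 0.57 on the log2 scale, and that of the 3 untreated repeats a median of 0.12 and a maximum of 0.33. In all 57 genes the smaller of the 2 within-cytokine differences exceeded both ranges, which the 1.5-fold minimum ensures for ranges of this size. Across all 24016 probe sets, the repeats of a treatment spanned at least 1.5-fold in 2.36% for IL6, 1.92% for IFNα, 1.5% for histamine and 0.496% for untreated cells.

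The lists made from each cytokine alone were longer than the shared one. The IL6 arrays alone gave 180 probe sets higher (0.75%) and 89 lower (0.371%), and the IFNα arrays alone gave 236 higher (0.983%) and 65 lower (0.271%). The 123 shared probe sets made up 68.3% of the IL6 list and 52.1% of the IFNα list, and the 23 shared lower ones 25.8% and 35.4%. A single probe set passed in opposite directions. IL6 and IFNα arrays share no array, and across all probe sets the 2 within-cytokine differences had a Pearson correlation of 0.61, or 0.51 over the probe sets not listed, given as a description. Deviations from the mean of the treatment, over all probe sets, correlated at 0.60 between IL6 repeat 3 and IFNα repeat 3, both VEGFA-high, but at 0.12 between IL6 repeat 2 and IFNα repeat 3. Between VEGFA-low arrays they correlated at 0.53 (IL6 repeat 1 and IFNα repeat 1) and 0.37 (IL6 repeat 1 and IFNα repeat 2). Between the sides they ran from −0.61 to −0.07. Deviations cancel out within a treatment, so the negative values follow from the positive ones and add no separate result. The −0.61, between IL6 repeat 1 and IFNα repeat 3, is the 0.61 of the within-cytokine differences with its sign reversed.

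By list median, markers of other cell types were nearly level between the sides. Endothelial, fibroblast and mural, leukocyte, Schwann and erythrocyte lists had 0 genes listed of 15, 16, 16, 7 and 7 measured, with medians of −0.04 to 0.06. Over all named genes 0.623% were listed higher and 0.0546% lower, so nothing is read from counts of 0 in lists this short. Mean levels over the endothelial list ran from 5.48 to 5.68 on the VEGFA-high arrays and from 5.49 to 5.52 on the VEGFA-low arrays. On all VEGFA-high arrays 3 endothelial genes lay above and 2 below, and CLDN5 differed by 0.45 within IL6 and 0.46 within IFNα. The erythrocyte list (5.00 to 5.10) lay at the lower quartile of the arrays (5.02 to 5.11), where RMA compresses differences. The endothelial and leukocyte (5.37 to 5.79) lists lay not far above it. For adrenal cortex markers the mean levels were 6.77 to 7.02 on the VEGFA-high arrays and 6.78 to 6.97 on the VEGFA-low arrays, and 1 of 14 was listed, the orphan receptor NR0B1, by 1 of its 2 probe sets. The cholesterol side-chain cleavage enzyme CYP11A1, a defining cortex gene, was lower by 0.41 in the mean of both cytokines (difference −0.41). Of 10 measured chromaffin markers 1 was listed higher (PNMT), with a median difference of 0.06. On all VEGFA-high arrays 7 lay above and 2 below, against 18.6% and 24.3% of all named genes. Their mean levels were 10.39 to 10.64 on the VEGFA-high arrays and 10.26 to 10.42 on the VEGFA-low arrays, and their part in the other differences was not tested. TH and CHGA read above 13 on every array.

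The quality values moved with the split in 1 respect. The mean of 9 spiked hybridisation controls was 9.96, 9.80 and 9.81 on the VEGFA-high arrays and 9.50, 9.59 and 9.61 on the VEGFA-low arrays. Untreated repeats 1, 2 and 3 had 9.64, 9.87 and 9.82 with VEGFA at 9.48, 9.52 and 9.44, and the histamine arrays had 9.17 to 9.57 with VEGFA at 10.71 to 10.74. The part of hybridisation in the split was not tested. The GAPDH 3′ minus 5′ signal, a sign of RNA integrity, was 0.09, 0.09 and 0.12 on the VEGFA-high arrays and 0.09, 0.06 and 0.08 on the VEGFA-low arrays. The mean of each array was 6.79, and arrays of a treatment correlated at 0.993 to 0.998.

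**Figure D4:**
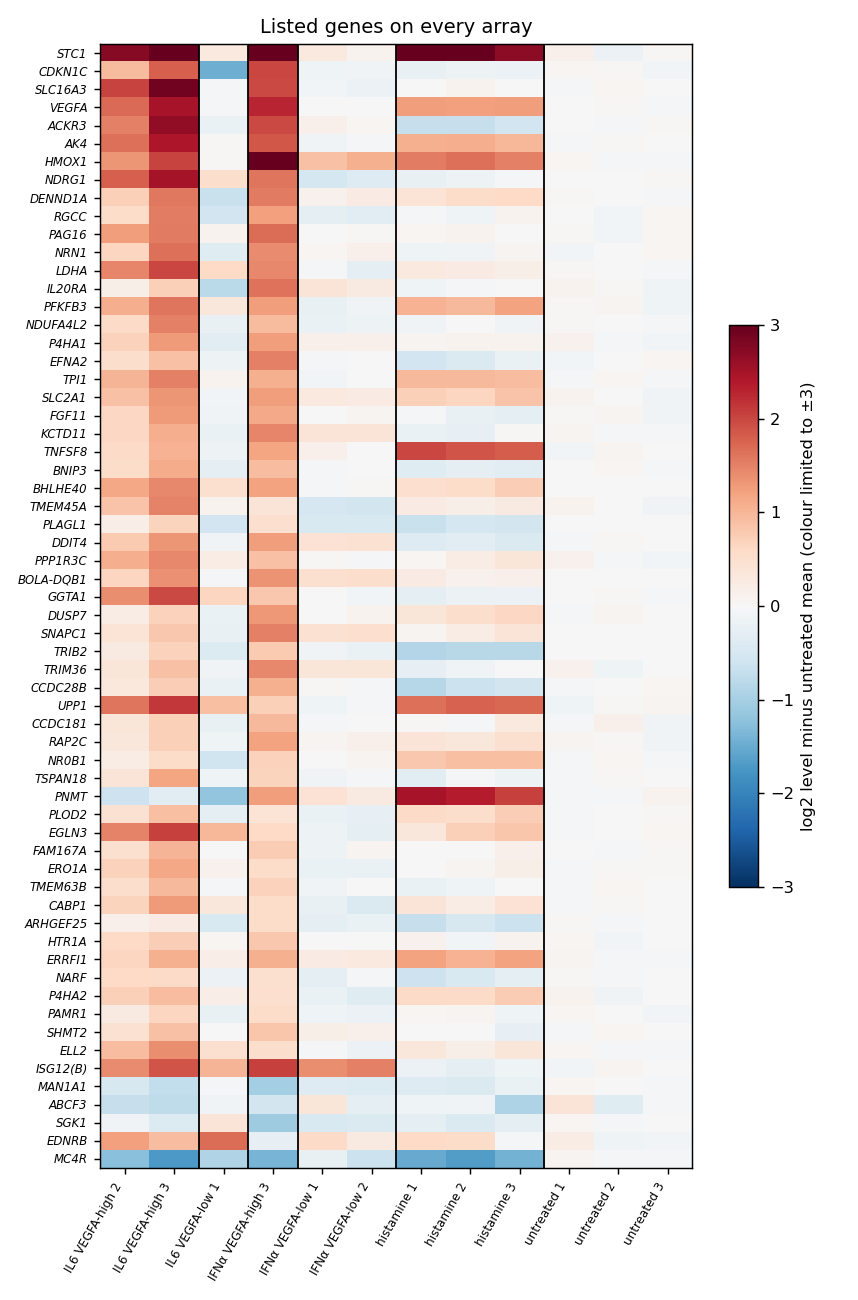
Log2 level minus the untreated mean for the 57 genes listed higher and, in the bottom 5 rows, those listed lower, on all 12 arrays, with colour limited to ±3. The 3 VEGFA-high columns are red for nearly all genes listed higher and the VEGFA-low columns mostly pale, while the histamine columns are red for only some of them.

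Histamine arrays, which played no role in the split, allowed a test of the same genes. Histamine against untreated cells was tested with limma on those 6 arrays alone, and its p-values measure only the spread between technical repeats. Of all probe sets 3.03% rose and 2.74% fell at an adjusted p under 0.05 and at least 1.5-fold. VEGFA rose after histamine, with 10.73, 10.71 and 10.74 against 9.48, 9.52 and 9.44 in untreated cells, 1.25 higher on the log2 scale (limma, SE 0.04, adjusted p = 9.76e-10). A fit of all 12 arrays, whose spread holds the cytokine arrays, gave the same change with an adjusted p of 0.12 in limma. STC1 rose by 3.05 (SE 0.14, adjusted p = 1.41e-08 in limma), with 8.33, 8.27 and 7.76 on histamine arrays against 5.22, 4.89 and 5.10. Its level after histamine thus overlapped that on the VEGFA-high arrays, whereas VEGFA stayed below them.

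Of the 57 genes listed higher, 16 (28.1%) rose after histamine and 4 (7.02%) fell, where 3.83% of all named genes rose and 3.23% fell. The other 37 were not called, and the median change of the 57 was 0.09. In the fit of all 12 arrays 10 rose and 2 fell. Those that rose were 7 of the 12 listed hypoxia targets (VEGFA, STC1, HMOX1, BHLHE40, EGLN3, PLOD2 and P4HA2), 3 of the 5 listed glycolysis genes (TPI1, PFKFB3 and SLC2A1) and 6 of the 40 listed genes in neither list. Log2 changes were 1.57 for HMOX1, 1.08 for PFKFB3, 0.96 for TPI1, 0.74 for SLC2A1, 0.64 for P4HA2, 0.62 for EGLN3, 0.61 for PLOD2 and 0.60 for BHLHE40. In neither list were AK4 (1.05), PNMT (2.29), NR0B1 (0.87) and the receptor-kinase inhibitor ERRFI1 (1.15). ACKR3 fell by 0.65 (−0.65 in limma, SE 0.07, adjusted p = 2.14e-05), with 6.02, 6.03 and 6.13 on histamine arrays against 6.71, 6.68 and 6.74. In the VEGFA-high arrays ACKR3 was higher instead (8.21, 9.38 and 8.70).

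The other 5 listed hypoxia targets and 2 listed glycolysis genes were not called after histamine. SLC16A3 changed by 0.04 (SE 0.07, limma adjusted p = 0.769) and NDRG1 by −0.13 (SE 0.06, limma adjusted p = 0.0857). LDHA (0.24), BNIP3 (−0.32), DDIT4 (−0.38), P4HA1 (0.10) and ERO1A (0.09) stayed below the 1.5-fold minimum, as did CDKN1C (−0.18) of the cell cycle list. The glycolysis list had 5 members rise and 0 fall after histamine, with a median of 0.13, and the list of other hypoxia targets had 10 rise and 1 fall, with a median of 0.07. MC4R was the 1 gene of the 5 listed lower that fell (−1.54 in limma, SE 0.07, adjusted p = 2.45e-08). Histamine acted for 6 h and the cytokines for 24 h, and the agents differ, so sizes are set side by side without a test between them.

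Some histamine calls rested on single arrays. Without histamine repeat 3, BHLHE40 (0.53), EGLN3 (0.52), PLOD2 (0.54) and P4HA2 (0.58) dropped under the fold minimum and 12 of the 57 rose. EGLN3 was also under it without repeat 2 (0.58). ARHGEF25 was under it without repeat 1 (log2 change −0.57). The remaining genes called after histamine were TNFSF8 and UPP1, which rose by 1.90 and 1.72, and TRIB2 and CCDC28B, with changes of −0.85 and −0.68.

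**Figure D5:**
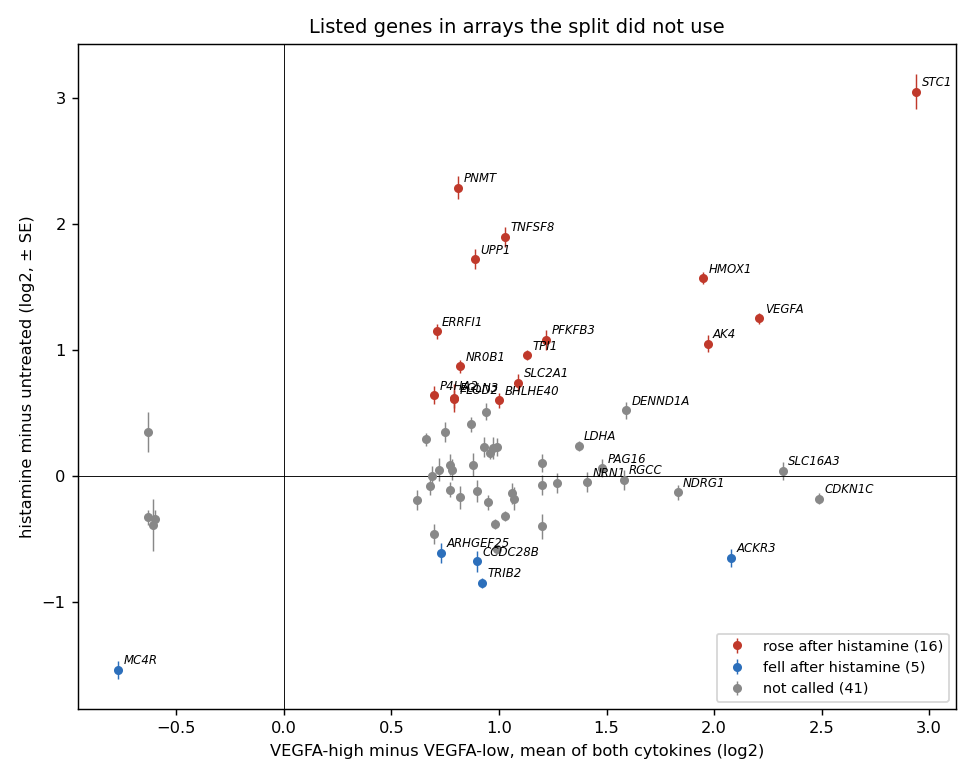
Log2 change after histamine, with its SE (n = 3 arrays each), against the mean VEGFA-high minus VEGFA-low difference, for the 62 listed genes. STC1 is far along both axes, while SLC16A3 and CDKN1C, wide on the horizontal axis, lie near 0 after histamine.

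Beyond the hypoxia group, the genes listed higher were mixed. RGCC, a cell cycle regulator, was 3.05-fold higher within IL6 and 2.91-fold within IFNα by its brightest probe set, the other having a mean difference of 0.08. NRN1, the neurite-promoting protein neuritin, was 2.86-fold and 2.48-fold higher. PAG16, a pregnancy-associated glycoprotein of the ruminant placenta, was dim (5.04, 5.35 and 5.47 on the VEGFA-high arrays and 3.91, 3.77 and 3.83 on the VEGFA-low arrays), yet both of its probe sets were listed. IL20RA, a cytokine receptor subunit, read 7.09 and 7.63 on VEGFA-high IL6 arrays and 6.11 on the VEGFA-low IL6 array, with untreated cells (6.78 to 7.02) between them. DENND1A, a membrane-traffic regulator, was 3.52-fold and 2.58-fold higher by its brightest probe set, but its other probe set had a mean difference of 0.01.

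Probe sets of a gene agreed in part. Of the 57 genes 26 had several probe sets, of which 6 had all of them listed and 17 had no other listed, and 0 had another listed in the opposite direction. A further 10 genes were listed higher, and 10 lower, only by a dimmer probe set, and are not counted among the 57 and the 5. Of the 123 probe sets listed higher 44, and of the 23 listed lower 6, carry no single gene symbol and are not named. Genes just inside the fold minimum were ISG12(B) and HTR1A (both 0.60 for the smaller within-cytokine difference), and those just outside were TSPAN5 and TMEM119 (both 0.58). On the lower side, MYC (−0.57) and INSIG1 (−0.56) were just outside.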

How the data were processed

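Biotin-labelled RNA of cultured bovine chromaffin cells was read on 1-colour Affymetrix arrays, per the labels' protocols. The authors deposited log2 expression values, made with RMA according to the submitters' processing notes, for 24128 probe sets on 12 arrays. RMA subtracts background, puts all arrays on 1 distribution and combines the probes of a set, so differences of dim transcripts come out too small. No source used here gives its version. Precision is limited by the number of arrays. The log2 unit follows from the values, 2.88 to 14.14.

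The 24016 probe sets described leave out 112 controls. Symbols came from the platform annotation and were updated through a table of cattle genes: 13292 probe sets had 1 symbol, 86 had several and 10638 had none. Among the 13292, gene identifiers matched 13263 and accessions 2, while 27 kept the platform's symbol. A gene was read from its probe set with the highest mean over 12 arrays. IL6 differences are the mean of repeats 2 and 3 minus repeat 1, and IFNα differences are repeat 3 minus the mean of repeats 1 and 2. Their mean equals the coefficient of a linear model with cytokine as covariate.

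Histamine was compared with untreated cells in limma 3.58.1 (R 4.3.3) by lmFit and eBayes with a trend, with Benjamini-Hochberg adjustment over 24016 probe sets, called at an adjusted p under 0.05 and at least 1.5-fold. The procedure was tested on simulated data. Repeat numbers are shared by the groups. Same-numbered histamine and untreated arrays deviated with correlations of 0.26, 0.05 and 0.09, where all pairs of these arrays ran from −0.17 to 0.26. These values do not settle whether the number marks a pairing, and no source used here gives one. The main fit used none, and a fit with the number as a block was run as an alternative.

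The VEGFA split, the lists of genes and the naming rule were chosen with earlier results of these data known. The rule named VEGFA, up to 15 listed genes each way by the smaller within-cytokine difference, up to 5 members of each list by size of difference, and a fixed set of hypoxia, chromaffin and cytokine genes, 137 in all. Other genes named were chosen after their values were seen, listed genes and those nearest the fold minimum included. Alternatives were other fold minimums, normalisations, a filter on dim probe sets, single cytokines, all probe sets of a gene, other limma fits and leaving out single arrays. Plots were made in Python 3.11.15 (matplotlib 3.10.9).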

Additional observations from a re-analysis of the deposited data

Results flagged for a closer look

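In 1470 of 9155 named genes (16.1%) all VEGFA-high arrays lay on one side of the VEGFA-low arrays within IL6 and on the opposite side within IFNα. Of the genes described by name above and in the rule for named genes, 5 did so. The difference between the cytokines was not tested. ISG15, an interferon-induced ubiquitin-like modifier, differed by 0.04 on the log2 scale within IL6 and by −0.07 within IFNα, where it lay near the highest values read. PTHLH, the parathyroid hormone-related peptide, differed by −0.10 within IL6, whose arrays all read about 7 (7.17 and 6.98 VEGFA-high, 7.18 VEGFA-low), and by 0.61 within IFNα (5.16 VEGFA-high, 4.45 and 4.65 VEGFA-low). FABP7, a fatty acid-binding protein, differed by −0.19 within IL6 and by 0.04 within IFNα. GBE1, a glycogen-branching enzyme, differed by 0.04 and −0.10, and PGM1, a phosphoglucomutase, by −0.03 and 0.16. Each side held 1 or 2 arrays per cytokine.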

How the results depend on the processing

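With at most 2 arrays a side in each cytokine, and the sides set by a transcript on them, the listed genes have no error of their own, and p-values after histamine cover technical spread only. Against 123 probe sets higher and 23 lower, a fold minimum of 1.2 gave 660 and 527, a minimum of 2 gave 39 and 1, and leaving out the dimmer 50% gave 81 and 12. IL6 arrays alone gave 89 lower, and IFNα arrays alone 236 higher and 65 lower. Single arrays left out were IL6 repeats 2 and 3 and IFNα repeats 1 and 2. IL6 repeat 1 and IFNα repeat 3, each the only array of its side in its cytokine, could not be left out. These runs gave 85 to 162 higher and 11 to 32 lower, with 12 lower without IL6 repeat 3 and 11 without IFNα repeat 1. Median centring, quantile normalization and cyclic loess gave 124 to 128 higher and 18 to 21 lower. The VEGFA difference of 2.21 was 2.15 for IL6 alone, 2.28 for IFNα alone and 1.98 as the mean of both probe sets. In the same runs with 1 array left out it was 2.02 (without IL6 repeat 3) to 2.41 (without IL6 repeat 2).

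After histamine, 727 probe sets rose and 657 fell. No fold minimum gave 3978 and 4288, with 25 and 11 of the genes listed higher, and a minimum of 2 gave 180 and 78, with 9 and 0. A fit of all 12 arrays, whose spread holds the cytokine arrays, called 10 risen and 2 fallen listed genes in place of 16 and 4, and gave VEGFA 1.25 with a limma adjusted p of 0.12, against 6.41e-11 to 1.72e-06 in the other fits. With the repeat number as a replicate block, 727 rose and 661 fell, 16 and 4 among the genes listed higher, with VEGFA at 1.25 (limma adjusted p = 6.42e-08). All 3 histamine arrays deviated most like the untreated array of their own number, but with correlations of only 0.26, 0.05 and 0.09. Deviations cancel out within a treatment, so the 3 matches are not separate results and do not settle a pairing. Over single genes and alternatives, the histamine result stayed on its side of the threshold 802 times, lost its call 28 times and gained it 22 times. No sign of a called value turned round in any alternative run.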

Other observations

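The interferon-response gene EIF2AK2, the double-stranded RNA kinase, varied widely between repeats of 3 treatments. It read 11.00 on the VEGFA-high IFNα array and 9.13 and 10.24 on the VEGFA-low IFNα arrays, 7.39, 7.00 and 6.25 on histamine arrays, and 7.97, 6.00 and 6.16 in untreated cells. RSAD2 also stood high in untreated repeat 1 (7.16, against 4.79 and 4.72 in repeats 2 and 3). VLDLR, the very low density lipoprotein receptor, was by its brightest probe set 1.36-fold higher on VEGFA-high arrays within IL6 and 2.11-fold within IFNα, and rose by 1.74 on the log2 scale after histamine (SE 0.04, limma adjusted p = 5.76e-11). Its other probe sets had mean differences of 0.05 to 0.09 between the sides. RET, a neurotrophic receptor, was 1.27-fold higher within IL6 and 1.64-fold within IFNα.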
